A study of Mus musculus with 9 samples.

Results

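The loss of the last functional copy of Gap43 was examined by comparing knockout (KO) with heterozygous (HZ) mice, the 3 arrays titled for the knockout against the 3 titled for the heterozygote, 6 of the 9 arrays measured. All 3 genotypes were C57BL/6 mice at postnatal day 5, with 3 mice per genotype and 1 array per mouse. HZ mice carried 1 disrupted Gap43 allele and KO mice carried 2. The 3 wild type (WT) arrays enter below as a shared source of the spread and as values set beside the others. The labels do not say which part of Gap43 was disrupted, and they name no restriction of the disruption to layer IV. RNA came from layer IV of the barrel cortex, cut out by laser microdissection and amplified in 2 cycles before hybridisation. Of 22626 probe sets that are not controls, those in the upper 60% by mean signal over the 9 arrays were tested, 13576 in all, and they represent 8503 named genes.

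GAP-43 is a membrane phosphoprotein of axonal growth cones and presynaptic terminals, where phosphorylation by protein kinase C and binding of calmodulin regulate its action on the actin cytoskeleton. Thalamic axons reach layer IV of the somatosensory cortex and sort by whisker in the first postnatal days, and the granule neurons of layer IV arrange around them as barrels. Messenger RNA lies mostly in cell bodies, and those of the thalamic neurons are outside a cortical dissection.

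Every array had been scaled to a common mean by the authors, and arrays were alike in their overall profile. Across probe sets (which are not independent replicates) the log2 signals of a pair of HZ arrays correlated at a median r of 0.963 and those of a pair of KO arrays at 0.964, against 0.962 for an HZ array paired with a KO array. Each group held 2 females and 1 male by their sex-linked transcripts. The log2 ratio of 3′ to 5′ control probe set signals, a measure of transcript length after amplification, ran from 3.29 to 4.67 over the HZ arrays and from 3.46 to 3.82 over the KO arrays, with HZ replicate 2 the highest. Precision is limited by having 3 arrays in each group, and no value below is a count of molecules.

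Gap43 itself was 3.53-fold lower in KO than in HZ layer IV and was the gene with the smallest p. Its single probe set on chromosome 16 gave signals of 5015, 5039 and 4389 on the HZ arrays and 979, 1930 and 1299 on the KO arrays, with 7089, 4746 and 4294 on the WT arrays. The KO and HZ arrays did not overlap, and the KO signals still lay well above the lowest mean signal kept for testing, 117. The means were 4814 ± 368 in HZ and 1403 ± 484 in KO (SD, n = 3 each). Gap43 fell by 1.82 on the log2 scale (SE 0.23, 95% interval -2.32 to -1.32), with a limma p of 0.0362 after Benjamini-Hochberg adjustment over the 13576 probe sets. A 2-sided exact permutation test on these 3 against 3 arrays gave p = 0.1, the smallest it can give. The adjusted p passed only narrowly. It was 0.287 when all 22626 probe sets were tested and 0.0697 when the WT arrays were left out of the fit. It was between 0.0513 and 0.168 without HZ replicate 1, HZ replicate 2, HZ replicate 3, KO replicate 1, KO replicate 3 or WT replicate 2. In these fits the log2 difference stayed between -1.885 and -1.59. Without KO replicate 2 the adjusted p was 0.0082 at a log2 difference of -2.08. Because the disrupted part is not given, the remaining signal in KO cannot be assigned to a transcript.

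No other gene passed the same threshold: 1 of 13576 probe sets, 0.00737%, had an adjusted p below 0.05. At p below 0.05 before adjustment, 1049 probe sets (7.73%) were called, of which 538 were higher in KO (3.96%) and 511 lower (3.76%), where 678.8 would be called by chance. With every array set to 1 median instead of the deposited scaling, the same count was 1061 and the share of it that was higher in KO went from 51.3% to 64.1%. Differences were small for most genes. The median size of the log2 difference over kept probe sets was 0.15, 90% of them lay between -0.42 and 0.41, and 44 probe sets (0.324%) were at least 2-fold higher in KO and 21 (0.155%) at least 2-fold lower. Simulated data of this size and spread were given 200 changed probe sets in each run. There the same test recovered 62.8% of 2-fold changes and 96.4% of 4-fold changes. The adjusted threshold is harder to pass where fewer probe sets change, so these shares can be too high for the present data. Malat1, at 4.03-fold, did not pass, and changes of 2-fold or more could be missed in a single gene. All values that follow other than that of Gap43 are therefore measured differences that did not pass the adjusted threshold.

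**Figure D1:**
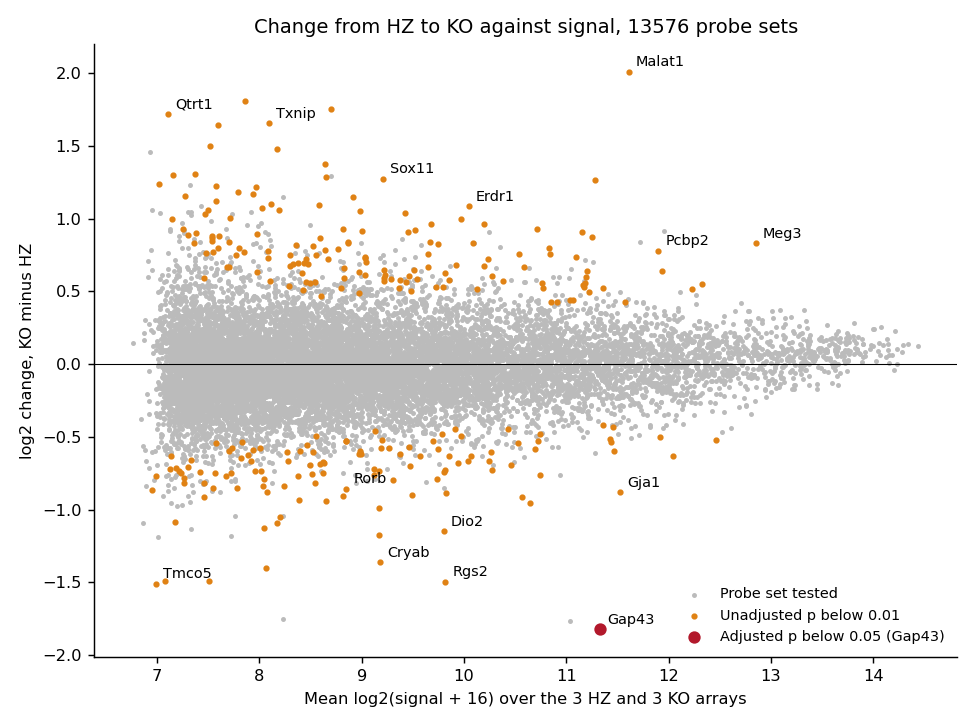
Difference between KO and HZ (vertical axis, log2) against the mean log2(signal + 16) of the 6 arrays (horizontal axis) for the 13576 probe sets tested. Orange points have an unadjusted p below 0.01, the red point is Gap43 at -1.82, and Malat1 lies furthest above 0 at 2.01.

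By p, the gene that ranked first above HZ was Malat1, followed by Pcbp2, Erdr1 and Qtrt1. Malat1, a long noncoding RNA of nuclear speckles, gave signals of 1378, 1119 and 2370 on the HZ arrays and 3627, 8147 and 8286 on the KO arrays. The lowest KO array was above the highest HZ array. The means were 1622 ± 660.4 and 6687 ± 2651 (SD, n = 3), a log2 difference of 2.01 ± 0.33 (SE), 4.03-fold, with an adjusted p of 0.171 by limma. The WT arrays read 2850, 3081 and 5050, and the log2 difference from WT was 0.82 for KO and -1.19 for HZ. All 4 kept Malat1 probe sets were higher on all 3 KO arrays than on any HZ array. Meg3, an imprinted noncoding RNA that is also retained in the nucleus, read 5236, 4540 and 7118 in HZ and 9337, 11482 and 8921 in KO. It too did not overlap, and its log2 difference was 0.83 ± 0.18 with all 4 probe sets higher. Pcbp2, a poly(C)-binding protein of RNA stability and translation, read 3226, 2434 and 3102 in HZ and 5237, 4847 and 4886 in KO, a log2 difference of 0.78 ± 0.13 with groups apart, although its second and dimmer probe set differed by -0.02. Ewsr1, an RNA-binding protein of the FET family, read 1603, 1926 and 1545 in HZ and 3298, 2376 and 2847 in KO. Zcchc7, a zinc knuckle protein of nuclear RNA surveillance, read 872, 647 and 909 and 1526, 1551 and 1266 in the same order. Neither gene had a KO array within the HZ range, at log2 differences of 0.74 and 0.84.

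Erdr1, a gene of the pseudoautosomal region, stood at 677, 652 and 808 in HZ and 1538, 1761 and 1300 in KO, a log2 difference of 1.08 ± 0.20. Qtrt1, the catalytic subunit of the enzyme that puts queuine into transfer RNAs, was dim in HZ at 41.8, 43.3 and 112 and stood at 211, 237 and 257 in KO, with WT at 133, 265 and 294. All 3 HZ readings of Qtrt1 lay under the lowest mean signal kept, so its log2 difference of 1.72 ± 0.33 rests on a level close to the floor of the array. Supt20, a subunit of the SAGA coactivator, had signals of 409, 295 and 377 in HZ and 585, 903 and 616 in KO. Id3, which blocks transcription factors of the helix-loop-helix class, had 344, 269.8 and 326 in HZ and 612, 789 and 465 in KO. These groups did not overlap either, at log2 differences of 0.92 and 0.93. Cxcl12, a chemokine that guides migrating neurons and is made by meninges and vessels, measured 158, 246 and 167 in HZ and 303, 416 and 532 in KO on its brighter probe set, and its other probe set differed by -0.13. Dusp6, a phosphatase that inactivates ERK, measured 137, 104 and 220 in HZ and 431, 331 and 299.8 in KO. Txnip, an inhibitor of thioredoxin that is induced by glucose, measured 158, 153 and 107 in HZ and 878, 573 and 199 in KO. Its log2 difference from WT was 0.45 for KO and -1.21 for HZ. KO replicate 3 was the lowest KO array for Txnip, and without it the adjusted p of Txnip by limma was 0.00614 against 0.306 with all arrays. Leaving out any other single array gave Txnip an adjusted p between 0.303 and 0.656. The log2 differences of Cxcl12, Dusp6 and Txnip were 1.06, 1.17 and 1.66, and for each gene every KO array was above every HZ array.

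On the lower side Gap43 was followed by Tmem229b, Gja1, Dio2 and Rorb in order of p. Gja1, which encodes connexin 43 of astrocyte gap junctions, gave signals of 3948, 4380 and 3665 on the HZ arrays and 2298, 2527 and 1731 on the KO arrays. The KO arrays lay below all HZ arrays and also below the WT arrays, which read 3819, 4592 and 5081. The means were 3998 ± 360.4 and 2185 ± 410 (SD, n = 3), a log2 difference of -0.88 ± 0.16 with an adjusted p of 0.205 by limma, and all 5 probe sets of Gja1 were lower. Dio2, the deiodinase with which astrocytes make active thyroid hormone, read 1322, 929 and 1842 in HZ and 592, 588 and 573 in KO, a log2 difference of -1.15 ± 0.23. The HZ arrays were spread widely and the KO arrays lay close together below them. Of its 3 probe sets, 1 differed the other way, by 0.12. With the 3′ to 5′ ratio as a term in the fit, the adjusted p of Dio2 by limma was 0.0456 against 0.247 without it. With 1 array left out, and without that term, it ran from 0.168 to 0.566. Hsd11b1, which regenerates active glucocorticoid, read 857, 518 and 488 in HZ and 312, 327 and 300.4 in KO. Its KO arrays were again close together below the HZ range, at a log2 difference of -0.91.

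Rorb, a nuclear receptor that marks layer IV neurons and is needed for barrel organisation, read 709, 518 and 601 in HZ and 324, 356 and 302 in KO, with WT at 541, 459.7 and 589. Every KO array lay below every HZ and WT array, at a log2 difference from HZ of -0.86 ± 0.17 and an adjusted p of 0.247 by limma. Pcdh20, a protocadherin of layer IV neurons, read 704, 835 and 856 in HZ and 346, 528 and 333 in KO, and the groups did not overlap at -0.99 ± 0.20. In bulk tissue, fewer cells of a type and less RNA per cell cannot be told apart. Tmem229b, a transmembrane protein, showed little spread within groups, with 1162, 1315 and 1185 in HZ and 654, 661 and 642 in KO and a log2 difference of -0.89 ± 0.15. Cryab, a small heat shock protein, measured 913, 857 and 981 in HZ and 209, 366 and 538 in KO, and Emc2, a subunit of the membrane protein insertase of the endoplasmic reticulum, 1831, 2772 and 2151 and 873, 1205 and 1402. Arg2, the mitochondrial arginase, measured 447, 372 and 436 in HZ and 212, 271 and 234 in KO. These 3 genes did not overlap between groups, at log2 differences of -1.36, -0.95 and -0.77.

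Hlf, a PAR family transcription factor, had signals of 1120, 986 and 1221 in HZ and 688, 642 and 572 in KO. Gpr37l1, an astrocyte receptor, had 381, 371 and 410.4 in HZ and 249.6, 207 and 178 in KO. Rgs2, which shortens signalling through G proteins, had 1455, 2014 and 1140 in HZ and 326, 460.3 and 933 in KO on the brighter of its pair of probe sets, and both were lower. For Hlf, Gpr37l1 and Rgs2 all KO arrays were below all HZ arrays, at -0.79, -0.84 and -1.49 on the log2 scale. Tmco5 was the exception among the 26 leading genes, since KO replicate 3 lay inside its HZ range: it read 246, 122 and 255 in HZ and 49.5, 23.8 and 148 in KO at low signal. Its KO mean, 73.6, was under the lowest mean signal kept, 117.

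**Figure D2:**
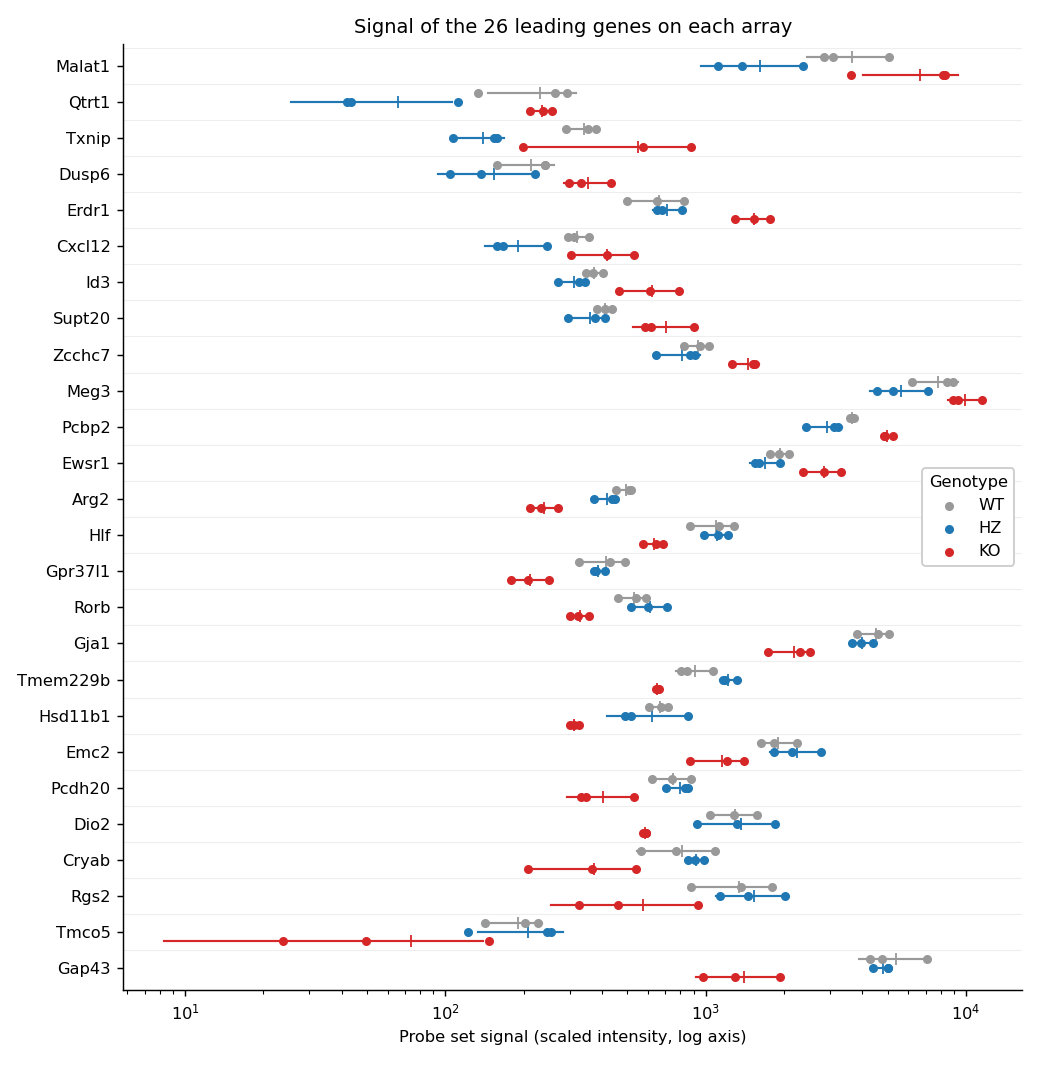
Signal of the 26 leading genes on each array (horizontal log axis, scaled intensity), with WT in grey, HZ in blue and KO in red. Points are arrays, ticks are means and lines are 1 SD on either side (n = 3). KO points of Malat1 start at 3627, above the highest HZ point of 2370, and the highest KO point of Gap43 is at 1930.

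The starts of 6 genes are given, since these had the smallest p in each direction, Gap43 aside, among the leading genes with a window to show. Of the leading genes, 11 of 12 on the higher side and 10 of 14 on the lower side had a window in the RefSeq promoter table (assembly GRCm38.p6). Each line holds the 250 bases before the annotated start, read 5′ to 3′ along the strand of the gene. Capitals mark GC boxes, which were spelled GGGCGG in the search, and TATA boxes, for which the letters TATAAA were taken. They also mark the CCAAT box by those letters and the cAMP response element TGACGTCA, and each motif was searched on both strands. The first 3 genes were higher in KO and the last 3 lower.
Malat1 (chr19:5802673-5802922, minus strand): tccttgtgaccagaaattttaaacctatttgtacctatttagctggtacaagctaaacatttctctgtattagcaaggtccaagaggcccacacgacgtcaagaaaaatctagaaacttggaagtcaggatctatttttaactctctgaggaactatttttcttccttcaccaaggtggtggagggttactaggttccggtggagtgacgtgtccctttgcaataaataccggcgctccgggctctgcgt
Pcbp2 (chr15:102470289-102470538, plus strand): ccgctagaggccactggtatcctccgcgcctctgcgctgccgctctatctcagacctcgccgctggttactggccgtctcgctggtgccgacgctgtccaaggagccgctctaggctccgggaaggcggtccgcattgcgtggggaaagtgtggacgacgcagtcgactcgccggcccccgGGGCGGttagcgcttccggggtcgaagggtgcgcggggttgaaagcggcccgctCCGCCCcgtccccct
Qtrt1 (chr9:21411587-21411836, plus strand): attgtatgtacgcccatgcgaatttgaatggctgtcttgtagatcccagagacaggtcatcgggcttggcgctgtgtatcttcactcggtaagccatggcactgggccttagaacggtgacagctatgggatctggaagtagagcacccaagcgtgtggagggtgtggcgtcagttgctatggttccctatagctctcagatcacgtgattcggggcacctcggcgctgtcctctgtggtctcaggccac
Tmem229b (chr12:79007278-79007527, minus strand): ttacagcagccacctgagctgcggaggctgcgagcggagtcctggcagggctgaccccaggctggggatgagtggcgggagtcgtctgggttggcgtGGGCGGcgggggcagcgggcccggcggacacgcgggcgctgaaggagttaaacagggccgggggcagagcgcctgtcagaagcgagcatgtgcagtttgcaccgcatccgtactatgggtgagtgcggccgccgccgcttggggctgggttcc
Gja1 (chr10:56377050-56377299, plus strand): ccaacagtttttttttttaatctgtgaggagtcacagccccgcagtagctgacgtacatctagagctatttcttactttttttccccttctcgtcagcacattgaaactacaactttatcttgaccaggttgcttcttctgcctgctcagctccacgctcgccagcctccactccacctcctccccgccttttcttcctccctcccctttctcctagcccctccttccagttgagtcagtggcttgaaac
Dio2 (chr12:90739039-90739288, minus strand): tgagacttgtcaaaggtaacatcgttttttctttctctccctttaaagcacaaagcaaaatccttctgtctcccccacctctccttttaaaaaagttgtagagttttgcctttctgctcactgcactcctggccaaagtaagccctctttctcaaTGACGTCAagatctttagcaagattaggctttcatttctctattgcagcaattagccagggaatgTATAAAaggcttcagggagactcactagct

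The Dio2 window held 1 cAMP response element and 1 TATA box, which 1.55% and 12.4% of all 32851 windows of this length held. The Pcbp2 window held 2 GC boxes and that of Tmem229b held 1, a motif found in 32.7% of all windows. The Malat1, Qtrt1 and Gja1 windows held none of the 4 motifs in capitals. E-boxes (CANNTG, in 66.2% of all windows and not in capitals above) were present in 2 of the 11 windows on the higher side and 6 of the 10 on the lower side. GC boxes were present in 6 and 4, CCAAT boxes in 4 and 6 (33.8% of all windows), TATA boxes in 2 and 2, and cAMP response elements in 1 and 2. These counts describe the letters of the windows only.

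Noncoding RNAs and the proteins that splice RNA were higher in KO across much of the group. The list held noncoding RNAs, SR proteins and their relatives, hnRNPs, and other spliceosomal RNA-binding proteins, and 57 of its 66 members were kept. Where in the cell these RNAs lay was not measured. Of these 57, 48 lay above 0, 14 were higher at an unadjusted p below 0.05 and 0 lower, and 17 had all 3 KO arrays above all 3 HZ arrays against 0 the other way. Over all 8503 genes, 45.1% lay above 0, 3.56% were higher and 4.08% lower at that p, and 6.47% had the KO arrays above and 8.07% below. The list's median log2 difference was 0.16 against -0.03 over all genes. Leaving out any single array moved the median only between 0.13 and 0.21 and the count of members higher at that p between 11 and 18. Only Malat1 ever passed the adjusted threshold in this list, under 2 of the alternative settings.

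Within the group, the noncoding RNAs differed most, with 5 of 6 above 0 and a median of 0.74. Beside Malat1 and Meg3 these were Snhg11, at 714, 806 and 981 in HZ and 1398, 2480 and 1238 in KO, Snhg1, at 1527, 1504 and 2043 and 3766, 2872 and 1710, and Gas5 at a log2 difference of 0.42. Snhg11 did not overlap between groups and Snhg1 did. Rian, an imprinted noncoding RNA from the same chromosomal domain as Meg3, was the only one on the other side of 0, at -0.08. SR proteins and SR-related factors were above 0 in 16 of 18 cases (median 0.23). Son, the large scaffold of nuclear speckles, measured 953, 1124 and 899 in HZ and 1583, 1433 and 1532 in KO, a log2 difference of 0.61 ± 0.15. Luc7l3, a factor of 5′ splice site choice, measured 3752, 3575 and 4730 in HZ and 5264, 5943 and 5965 in KO, at 0.52 ± 0.13. Both genes had every KO array above every HZ array. Srrm1 and Rbm25, further speckle proteins, were also apart, at 0.59 and 0.85, while the dimmer probe set of Srrm1 differed by less than 0.01 and that of Rbm25 by -0.13.

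Of the hnRNPs, the abundant proteins that coat nascent transcripts, 15 of 18 lay above 0 with a median of 0.13. Hnrnph1 read 3629, 1916 and 3422 in HZ and 5415, 5947 and 5005 in KO, which did not overlap, and Hnrnpa1 read 686, 477 and 563 and 1620, 1342 and 654, where KO replicate 3 lay inside the HZ range. Their log2 differences were 0.92 and 0.96. Of the other RNA-binding proteins, helicases and kinases 12 of 15 lay above 0 (median 0.13). Sfpq, a paraspeckle protein, measured 1818, 1982 and 1894 in HZ and 3318, 2582 and 2557 in KO, at 0.56 ± 0.17, and Nktr, a cyclophilin with an SR domain, 401, 310.3 and 474 and 488, 982 and 603, at 0.74 ± 0.24. The lowest member was Ddx3x, a helicase that acts mainly in translation, at -0.49, followed by the kinase Clk1 at -0.26. Probe sets of 1 gene did not always agree: another probe set of Sfpq differed by -0.01 and the second of Nktr by -0.04, and over all genes with several probe sets 51.9% had them all on 1 side of 0. Luc7l2, whose brightest probe set differed by 0.22, had another of its 5 higher probe sets at 203, 252 and 272 in HZ and 550, 763 and 541 in KO. That Luc7l2 probe set, chosen after its values were seen, had a log2 difference of 1.29 and the smallest p after Gap43 (adjusted p 0.0950 by limma).

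Taken by array, the median deviation of these genes from their mean over the HZ and KO arrays was -0.12, -0.08 and -0.09 on the HZ arrays and 0.14, 0.22 and 0.02 on the KO arrays. On the WT arrays it was -0.10, -0.19 and -0.01, so the KO arrays were highest of all 9 and the HZ arrays lay within the WT range. The log2 ratio of 3′ to 5′ signals was 3.31, 4.67 and 3.29 on the HZ arrays and 3.72, 3.82 and 3.46 on the KO arrays. The KO arrays lay above HZ replicates 1 and 3 and below HZ replicate 2 on it. With that ratio as a term the list had 15 members higher at an unadjusted p below 0.05 and 50 of 57 above 0.

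**Figure D3:**
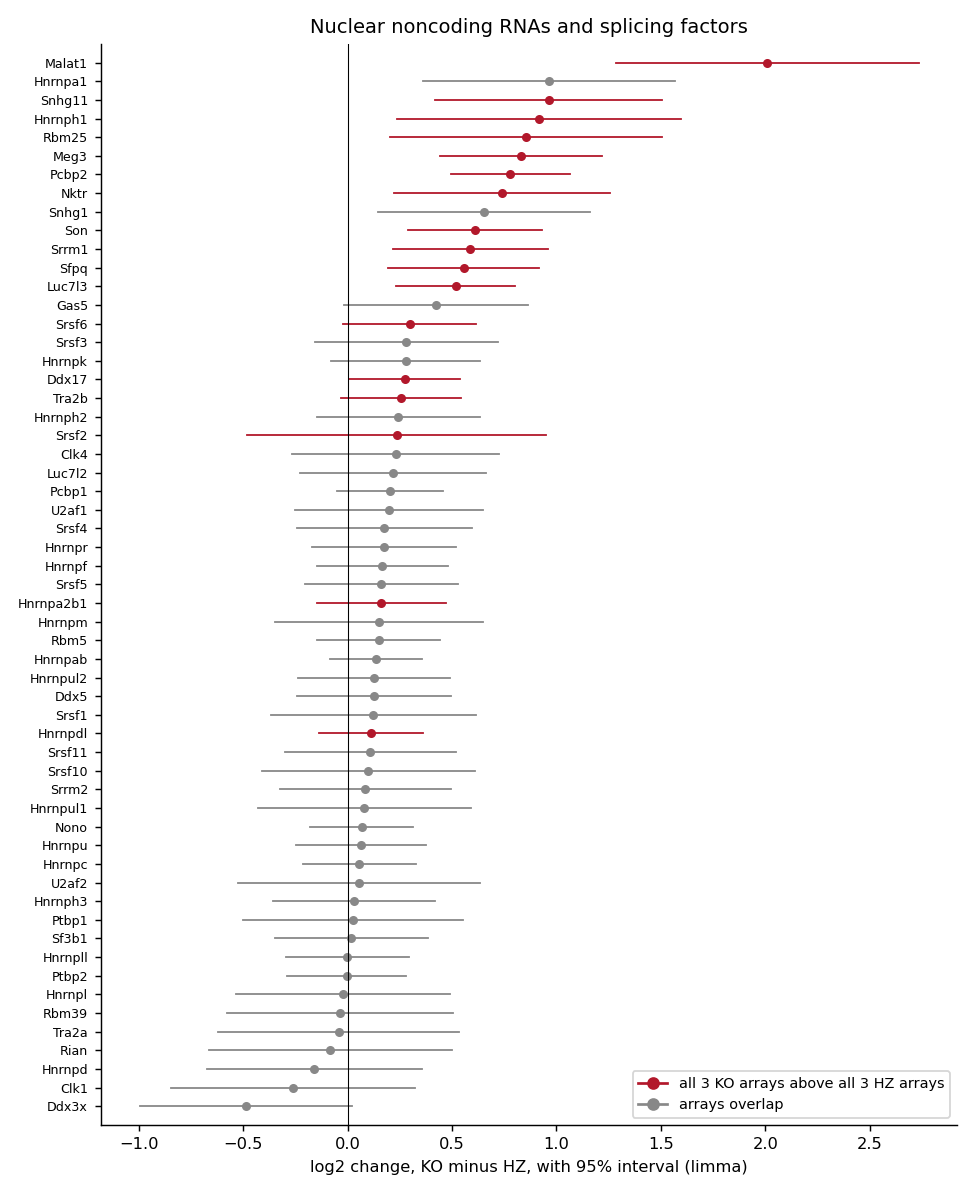
Log2 difference between KO and HZ with its 95% interval from limma (horizontal axis) for the 57 kept noncoding RNAs and splicing factors. Red marks the 17 genes whose 3 KO arrays all lay above the 3 HZ arrays, and no gene had them all below.

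Astrocyte markers were divided by the kind of protein. Of 45 listed, 38 were kept, and 14 lay above 0 and 24 below, with a median of -0.11. At an unadjusted p below 0.05, 5 were higher and 7 lower, and 3 had KO arrays above and 10 below all HZ arrays. Over all genes 45.1% lay above 0, 3.56% were higher and 4.08% lower at that p, and 6.47% had the KO arrays above and 8.07% below. Without KO replicate 3 the number lower at that p was 3, and it was 5 to 9 without any other HZ or KO array. All 5 transcriptional regulators lay above 0 with a median of 0.73, and 4 of them were the Id genes. Id1 read 259, 203 and 323 in HZ and 489, 487 and 348 in KO, which did not overlap. Id2 read 1553, 3111 and 3280 in HZ and 5251, 5513 and 3153 in KO, and Id4 601, 502 and 518 and 556, 938 and 923, and both overlapped. The log2 differences of Id1, Id2, Id3 and Id4 were 0.73, 0.84, 0.93 and 0.53, and that of Hes5, a Notch effector, was 0.09. The Id genes are targets of BMP signalling and are expressed by progenitors, neurons and vessels as well as astrocytes.

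Genes of astrocyte coupling and transport lay mostly below 0, 8 of 10 with a median of -0.32. Beside Gja1 these included Mlc1, a membrane protein of astrocyte endfeet, at 287, 304 and 311 in HZ and 191, 276 and 143 in KO, and the potassium channel Kcnj10 at 775, 748 and 763 and 447, 703 and 606. Both had KO arrays below all HZ arrays, at -0.57 ± 0.21 and -0.39 ± 0.20. The transporters Slc7a10 and Slco1c1 were also apart at -0.36 and -0.34, while Slc1a3, the glutamate transporter GLAST, differed by -0.15 and overlapped. S100b, a calcium-binding protein of mature astrocytes, stood at 186, 166 and 204 in HZ and 128, 96.9 and 99.0 in KO, at -0.70 ± 0.21. Aldoc, the astrocyte aldolase, stood at 2318, 2181 and 2565 in HZ and 1542, 1992 and 1277 in KO, at -0.57 ± 0.21. Tenascin C (Tnc), a matrix protein of immature astrocytes, was on the other side, with all KO arrays above all HZ arrays. The summed signal of the 38 markers ran from 51532 to 57748 over the HZ arrays and from 45211 to 58282 over the KO arrays, and these ranges overlap.

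**Figure D4:**
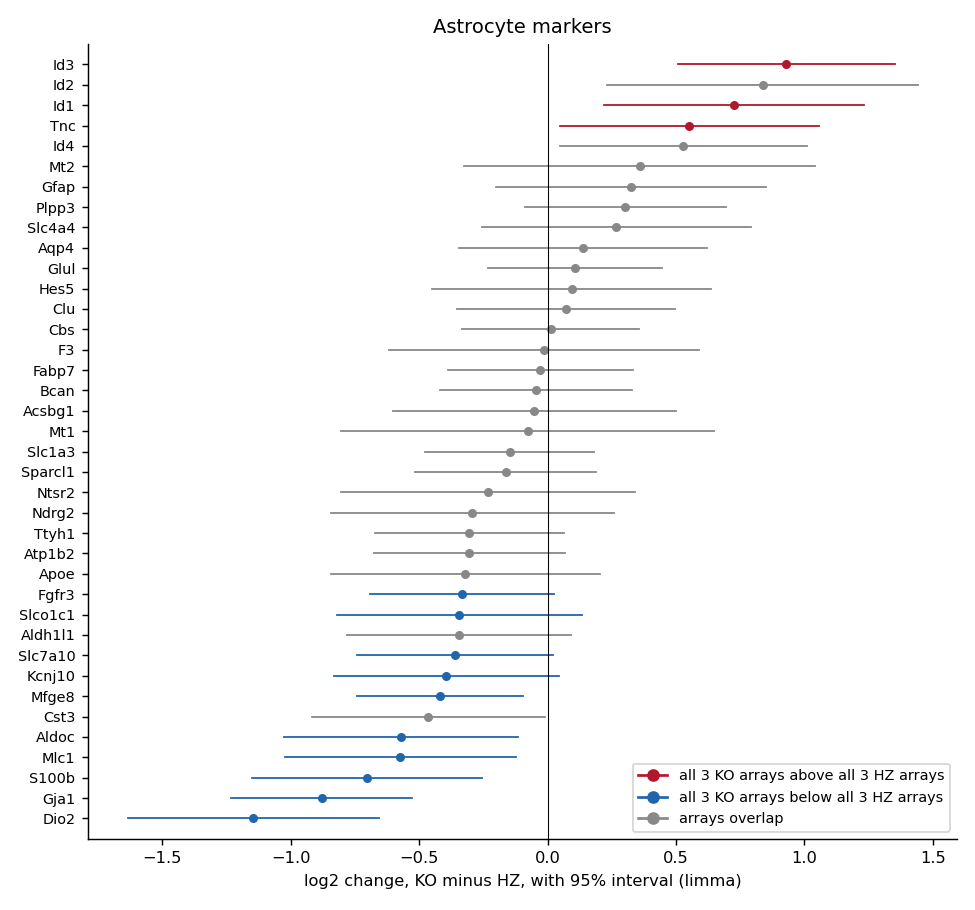
Log2 difference between KO and HZ with its 95% interval from limma (horizontal axis) for the 38 kept astrocyte markers. Red marks genes with all 3 KO arrays above the 3 HZ arrays, blue marks the 10 with all below, and grey marks overlap. The 3 highest genes are Id3, Id2 and Id1 and the lowest are Dio2, Gja1 and S100b.

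Markers of other cells that a layer IV dissection can hold lay more often below 0 than above it, as did all genes, of which 45.1% lay above 0. Endothelial and mural markers were below 0 in 19 of 25 cases with a median of -0.14, and 7 had all KO arrays below all HZ arrays and 0 above, against 8.07% and 6.47% of all genes. The phospholipid transfer protein Pltp, at 620.1, 914 and 669 in HZ and 571, 355 and 389 in KO, was the 1 member lower at an unadjusted p below 0.05. The glucose transporter Slc2a1, the endothelial marker Emcn and the secreted factor Egfl7 were among those apart, at -0.36, -0.40 and -0.32. The summed signal of the 25 markers was 11247 to 12362 over the HZ arrays and 9631 to 11192 over the KO arrays, which did not overlap, with WT at 10963 to 13008. Oligodendrocyte lineage markers lay below 0 in 9 of 12 cases (median -0.22). Olig1, a transcription factor of the lineage, measured 2040, 2019 and 2315 in HZ and 1059, 2004 and 1525 in KO, and Cnp, a myelin enzyme, 1072, 1932 and 1386 and 895, 950.3 and 892. These were the 2 of 12 members (16.7%) with the KO arrays below the HZ arrays, against 8.07% of all genes. Their log2 differences were -0.51 ± 0.20 and -0.63 ± 0.33, although the dimmer probe set of Cnp differed by less than 0.01. The summed signal of the 12 markers overlapped, at 6321 to 7282 in HZ and 4941 to 6408 in KO. Microglia markers were dim, and 10 of 24 were kept. Of these, 8 lay below 0 (median -0.32) with 0 at an unadjusted p below 0.05 and none apart. Their sum was 2285 to 2999 in HZ and 1943 to 2492 in KO. Markers of meninges, blood and choroid plexus had 7 of 21 members kept, 3 above 0 and 4 below, a median of -0.03 and overlapping sums. The part of these markers in the differences of other genes was not tested.

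Mitochondrial respiratory chain genes lay more often below 0 than above it. Of 78 kept subunits of oxidative phosphorylation, 57 lay below 0, 7 were lower and 1 higher at an unadjusted p below 0.05, and 12 had the KO arrays below and 1 above all HZ arrays. Over all genes 45.1% lay above 0, 4.08% were lower and 3.56% higher at that p, and 8.07% had the KO arrays below and 6.47% above. The median was -0.08, against -0.03 over all genes. Leaving out KO replicate 1 or HZ replicate 2 brought the number lower to 3 and 4. Complex I, which takes electrons from NADH, differed most among the larger complexes, with 30 of 34 subunits below 0 (median -0.14) and 8 apart. Ndufa7 measured 1512, 2246 and 1647 in HZ and 1056, 1195 and 1037 in KO, at -0.69 ± 0.16 with all 5 probe sets lower. Ndufab1, the acyl carrier subunit, measured 1154, 1258 and 1203 in HZ and 818, 975 and 829 in KO, at -0.46 ± 0.18, and its second probe set differed by -0.02. Complex II, which takes electrons from succinate, was on the other side, with 3 of 4 above 0, and Sdhd measured 811, 524 and 840.4 in HZ and 1000, 1233 and 1088 in KO at 0.62 ± 0.19. The WT mean of Sdhd was 1502, above both. Complexes III and IV and the ATP synthase had medians of -0.07, -0.05 and -0.06.

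Other housekeeping lists had medians between -0.10 and 0.06. Cytosolic ribosomal proteins lay above 0 in 30 of 45 cases with a median of 0.06, but after quantile normalization in 21 of 45 with a median of -0.01. Rpl27a, at 1170, 1018 and 1045 in HZ and 1549, 1714 and 1569 in KO, and Rps25, at 286, 196 and 308 and 493, 366 and 374, were 2 of the 7 members (15.6%) with the KO arrays above the HZ arrays, against 6.47% of all genes. Mitochondrial ribosomal proteins were split 36 above and 37 below, with 0 of 73 at an unadjusted p below 0.05. Of 38 proteasome subunits 1 was higher (Psme1, 0.47) and 1 lower (Psmb7, -0.58). Of 40 heat shock proteins and chaperones Cryab was the 1 at that p. Glycolysis and citric acid cycle enzymes had a median of -0.03, with Pfkp, the platelet isoform of phosphofructokinase, at 1194, 878 and 1633 in HZ and 1824, 3258 and 2044 in KO and so apart at 0.93 ± 0.24. The lipid group had a median of -0.10, with the sterol regulator Srebf2 at 289, 410.4 and 373 in HZ and 107, 259 and 258 in KO and the neuronal cholesterol hydroxylase Cyp46a1 at -0.48.

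**Figure D5:**
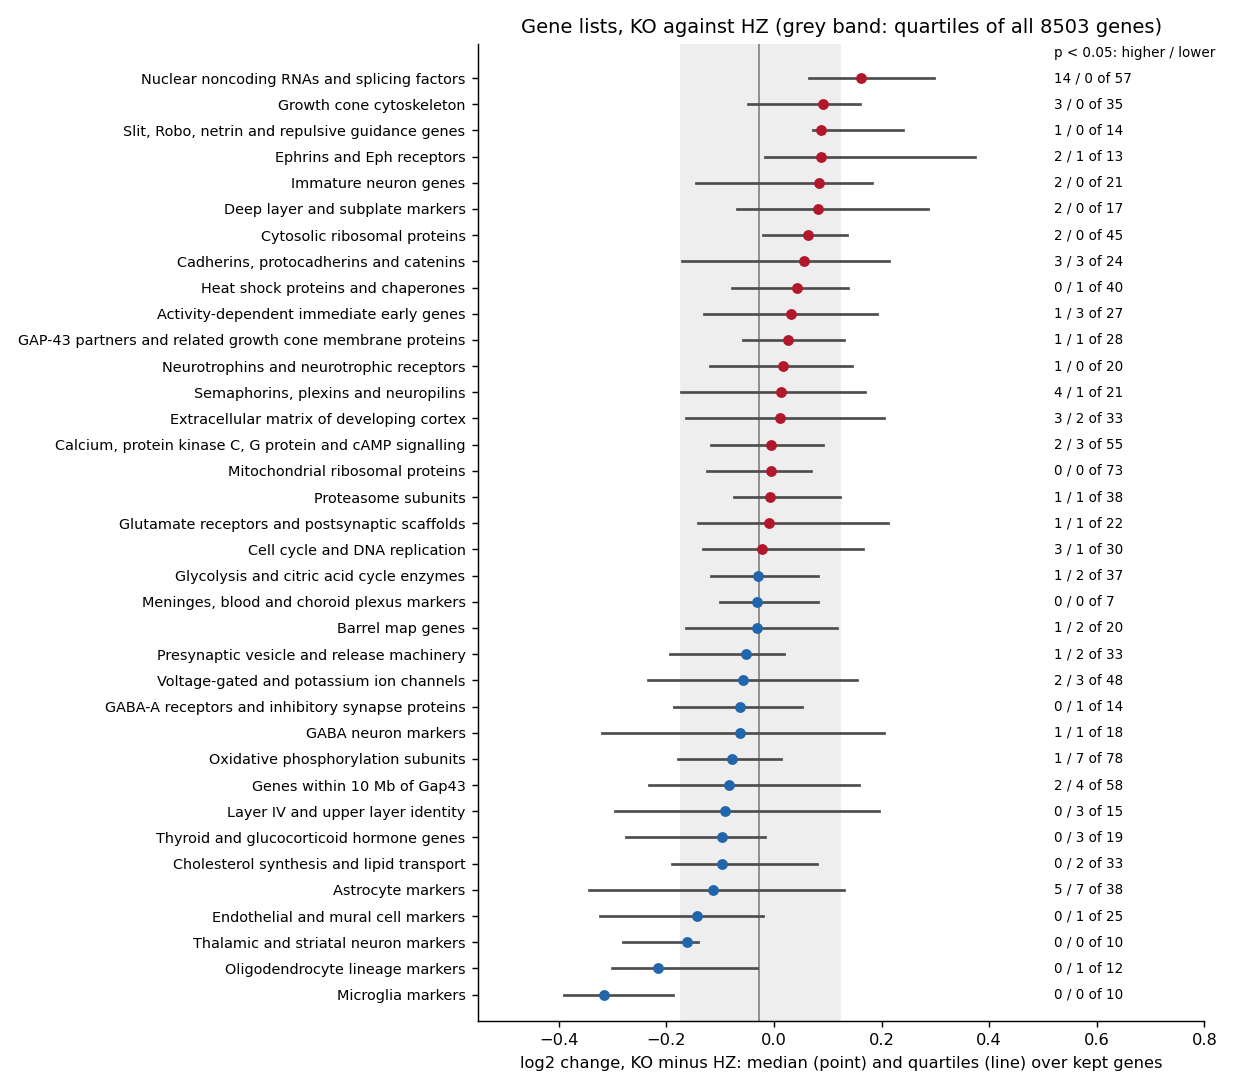
Median (point) and quartiles (line) of the log2 difference between KO and HZ for the kept genes of each list, with the number higher and lower at an unadjusted p below 0.05 at the right. The grey band and line are the quartiles and median (-0.03) of all 8503 genes. Red points lie above that median and blue points below, from 0.16 for noncoding RNAs and splicing factors to -0.32 for microglia markers.

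Genes that work with GAP-43 in the growth cone were nearly level between KO and HZ by their median. Of 28 kept partners and related membrane proteins, 16 lay above 0 with a median of 0.03, and 1 was higher and 1 lower at an unadjusted p below 0.05. The shares over all genes were 45.1% above 0, 3.56% higher and 4.08% lower. All KO arrays lay above all HZ arrays for 4 of the 28 (14.3%) and below for 2 (7.14%), against 6.47% and 8.07% of all genes. Prkca, a kinase of the protein kinase C family that phosphorylates GAP-43, measured 305, 287 and 299 in HZ and 238, 155 and 198 in KO. Gnao1, the G protein subunit enriched in growth cones, measured 3455, 3415 and 3159 in HZ and 4364, 4039 and 4189 in KO. The groups were apart for both, at -0.57 ± 0.19 and 0.33 ± 0.14. In the growth cone cytoskeleton 22 of 35 lay above 0 (median 0.09), 3 were higher at that p and 0 lower. There 4 members (11.4%) had all KO arrays above all HZ arrays and 0 below. Neuronal tubulin Tubb3 stood at 3286, 2933 and 3061 in HZ and 4134, 3499 and 4113 in KO. Tubb2b stood at 7100, 11108 and 9163 in HZ and 11134, 12315 and 11394 in KO, and Dpysl3, a collapsin response mediator, at 9449, 9691 and 9009 and 10273, 11283 and 11181. Each had the KO arrays above the HZ arrays by a small amount, at 0.34, 0.37 and 0.22. Quantile normalization brought the median of this list to 0.01, and without KO replicate 3 the counts were 1 higher and 2 lower. Without 1 of the other HZ or KO arrays, 1 to 5 members were higher and 0 lower.

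Axon guidance genes were counted in 3 lists. Among semaphorins, plexins and neuropilins 11 of 21 lay above 0 with a median of 0.01, and 4 were higher and 1 lower at an unadjusted p below 0.05, against 3.56% and 4.08% of all genes. Without 1 array, 2 to 4 were higher. The repellents Sema3a and Sema3e measured 768, 795 and 807 and 79.9, 154 and 113 in HZ and 1111, 1307 and 859.6 and 188, 282 and 183 in KO. The receptor Plxnb2 measured 123, 125 and 53.3 in HZ and 231, 191 and 167 in KO, and Sema4a 479, 515 and 465 and 668, 678 and 622, while Sema4d was lower at -0.41. All 5 were apart between groups, at log2 differences of 0.44, 0.84, 0.93 and 0.42 for the 4 higher members. In the whole list 5 of 21 (23.8%) had the KO arrays above all HZ arrays and 1 (4.76%) below, against 6.47% and 8.07% of all genes. The HZ and WT means of Plxnb2, 100.5 and 89.3, were both under the lowest mean signal kept, so it was tested only through its KO arrays, and the HZ mean of Sema3e was also under that level. The ephrin receptor Epha3 stood at 179, 172 and 208 in HZ and 286, 334 and 278 in KO and Epha5 at 1121, 937 and 1108 and 1599, 1323 and 1378, with both groups apart, although the second probe set of Epha5 differed by 0.05. Epha8 was the 1 ephrin receptor lower at that p, at 225, 306 and 343 in HZ and 235, 216 and 129 in KO, and its groups overlapped. Of the 13 kept ephrins and receptors, 9 lay above 0, against 45.1% of all genes, with a median of 0.09 that was 0.33 with 40% of probe sets kept. Robo1, a Slit receptor on thalamic and cortical axons, stood at 169, 188 and 137 in HZ and 277, 371 and 460 in KO, at 1.07 ± 0.27 the largest member difference among the 14 genes of the Slit, Robo and netrin list. In that list 11 of the 14 lay above 0 and the median was 0.09. In the cadherin list 3 of 24 were higher and 3 lower at that p, and the neurotrophic list had 1 of 20, the heparin-binding factor Ptn at 4182, 3457 and 5228 in HZ and 7857, 5667 and 5390 in KO, whose dimmer probe set differed by -0.09.

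Markers of the cortical layers separated at single genes. Of 15 kept layer IV and upper layer genes, 3 were lower at an unadjusted p below 0.05 and 0 were higher, against 4.08% and 3.56% of all genes. The same 3 had all KO arrays below all HZ arrays (8.07% of all genes), and 1 member, the activity-regulated factor Mef2c, had them above (6.47%) at a log2 difference of 0.15. These 3 lower genes were Rorb, Pcdh20 and Cux1, the last a homeodomain factor of the upper layers, at 1919, 2179 and 2575 in HZ and 1846, 1398 and 843 in KO with all 3 probe sets lower. The other 12 members had no common direction: 7 of the 15 lay above 0, and the list median of -0.09 went to 0.08 without HZ replicate 2, while 3 or 4 members were lower at that p whichever array was left out. Deep layer and subplate markers lay above 0 in 11 of 17 cases (median 0.08). Sox5, a factor of corticofugal neurons, stood at 124, 30.3 and 162 in HZ and 295, 199.5 and 246 in KO and Foxp1 at 3477, 4679 and 3139 and 5229, 5300 and 5210, with groups apart at 1.31 ± 0.39 and 0.50 ± 0.21. The HZ mean of Sox5, 106, was under the lowest mean signal kept. The other 4 probe sets of Foxp1 overlapped, at 0.01, -0.09, 0.28 and 0.08. Without KO replicate 3 the median of that list was -0.0044. Markers of thalamic and striatal neurons had 10 of 20 members kept, a median of -0.16 and 0 members at that p. Rora, the member of smallest p, read 1071, 913.5 and 856.5 in HZ and 542.5, 911.5 and 731.4 in KO. Its groups overlapped at -0.40, and both of its probe sets were lower. These markers are not exclusive to cells outside the cortex, and the source of their signal was not tested.

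Among genes known from barrel formation 2 of 20 were lower and 1 higher at an unadjusted p below 0.05, against 4.08% and 3.56% of all genes. Cdh8, a cadherin of sensory circuits, measured 686, 453 and 511 in HZ and 170.2, 308 and 389 in KO, at -0.94 ± 0.27. Grin2b, the juvenile NMDA receptor subunit, measured 215, 255 and 155 in HZ and 123, 116 and 109.5 in KO at low signal, at -0.74 ± 0.21. Both genes were apart, and the KO mean of Grin2b, 116, was under the lowest mean signal kept, 117. The higher member was Celsr3, a cadherin of axon tract formation, at 347, 538 and 336 in HZ and 695, 678 and 491 in KO, which overlapped at 0.61 ± 0.23. The median of the list was -0.03. Immature neuron genes lay above 0 in 13 of 21 cases (median 0.08). Sox11, a factor of new neurons, stood at 349.8, 447 and 308 in HZ and 1523, 626 and 769.7 in KO, at 1.27 ± 0.30, with KO replicate 1 the highest, and Neurod6 overlapped at 0.59. Of GABA neuron markers, the calcium-binding protein Calb2 measured 966, 1242 and 507 in HZ and 316, 334 and 467 in KO, at -1.18 ± 0.35 and apart, and Calb1 327, 699 and 463 and 484, 909 and 1276, which overlapped. The median of these 18 was -0.06.

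Over all genes 7.64% were at an unadjusted p below 0.05 in either direction, and the shares of the synaptic and signalling lists are set beside that. Glutamate receptors and scaffolds had 2 of 22 at that p (9.09%), presynaptic genes 3 of 33 (9.09%), and GABA-A receptors and inhibitory synapse proteins 1 of 14 (7.14%). In the presynaptic list 23 of 33 lay below 0 with a median of -0.05, among them Syt5 at -0.44 and Syn1 at -0.41, where 45.1% of all genes lay above 0. Gabarap, which binds GABA-A receptors and acts in autophagy, stood at 1453, 1621 and 1425 in HZ and 954, 857 and 1143 in KO and was apart. Voltage-gated and potassium channels had 5 of 48 at that p (10.4%), with Kcnj9 at 695, 729 and 669 in HZ and 451, 388 and 566 in KO and Kcnq5 at -0.45. In the calcium, protein kinase C and G protein list 5 of 55 were at that p (9.09%), 2 higher and 3 lower. Immediate early genes had 1 of 27 higher, Dusp6, and 3 lower, Rgs2, Nfil3 and Egr4, together 14.8%, and a median of 0.03. Genes of the extracellular matrix had 3 higher and 2 lower of 33 (15.2%), with the laminin chain Lama5 at 220.3, 178 and 236 in HZ and 324, 360.5 and 282 in KO and the membrane protease Mmp14 at 243, 309.7 and 309 and 227, 176 and 156, both apart. Cell cycle genes had 3 higher and 1 lower of 30 (13.3%), with Cdc20, an activator of the anaphase-promoting complex, at 275, 134 and 183 in HZ and 367, 296 and 345 in KO. The second probe set of Cdc20, of similar signal, differed the other way by -0.18 and overlapped.

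Thyroid and glucocorticoid hormone genes lay below 0 in 15 of 19 cases with a median of -0.10, where 45.1% of all genes lay above 0. Of the 19, 3 were lower at an unadjusted p below 0.05 and 4 had the KO arrays below the HZ arrays, against 4.08% and 8.07% of all genes. Beside Dio2 and Hsd11b1, which activate the hormones locally, the thyroid hormone receptor Thra measured 3472, 4944 and 3671 in HZ and 3100, 3232 and 3033 in KO, at -0.35 ± 0.15. The WT mean of Thra was 3052, next to that of KO. Slco1c1, the transporter that carries thyroxine into the brain, was the other gene apart. Dio2 and Slco1c1 are also counted among the astrocyte markers above.

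Genes near the disrupted locus differed in both directions, with a median a little below that of all genes. Their median log2 difference was -0.08 against -0.03 over all genes, and it ran from -0.10 to -0.04 under the alternatives. Within 10 Mb of Gap43 on chromosome 16, 58 genes were kept. Of these, 23 lay above 0 and 35 below, where 45.1% of all genes lay above 0. At an unadjusted p below 0.05, 2 were higher and 4 lower, against 3.56% and 4.08% of all genes. The KO arrays lay above all HZ arrays for 5 of the 58 genes and below for 9. The last are 8.62% and 15.5% of them, against 6.47% and 8.07% of all genes. Slc35a5, a nucleotide sugar transporter, measured 806, 1528 and 732 in HZ and 447, 529 and 560.3 in KO with all 4 probe sets lower. Mylk, the myosin light chain kinase, measured 193, 209 and 221 in HZ and 292, 319.8 and 271 in KO, and the integrin-associated protein Cd47 3140, 3686 and 2886 and 4825, 4200 and 3733, where 1 of the 3 Cd47 probe sets differed the other way by -0.38. The transferrin receptor Tfrc stood at 3002, 2428 and 2763 in HZ and 1981, 2179 and 2150 in KO. On chromosome 16 as a whole 15 of 285 genes were higher and 15 lower at that p, 10.5% in all, and the other autosomes ran from 5.53% to 9.54%.

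For the groups described first, the WT values are set beside those of HZ and KO. KO, HZ and WT comparisons share arrays, so their medians are set side by side only. The noncoding RNA and splicing list had a median log2 difference of 0.16 for KO minus HZ, 0.23 for KO minus WT and 0.01 for HZ minus WT. The astrocyte list had -0.11, -0.28 and -0.17 in that order, the oxidative phosphorylation list -0.08, -0.16 and -0.07, and the endothelial list -0.14, -0.15 and 0.11. The layer IV list had -0.09, 0.07 and 0.06. Of the 12 genes of smallest p that were higher in KO, 11 had a WT mean between those of HZ and KO and 1 below both. Of the 12 that were lower, Gap43 included, 7 had it between and 5 above both. Over all 8503 genes, 2772 had it between, 2443 above both and 3288 below both. The leading genes were picked for their gap between KO and HZ. A wide gap itself makes a WT mean between the groups more likely, so these counts do not place the HZ level. Among list members, Rpl27a, Ptn and Epha3 had WT means of 1617, 6421 and 317, next to KO means of 1611, 6305 and 299 and above HZ means of 1078, 4289 and 187. For Gap43 itself the same differences were -1.82, -1.95 and -0.13, and the HZ arrays overlapped the WT arrays.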

How the data were processed

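Layer IV of the barrel cortex of 9 mice at postnatal day 5 was profiled on 1 array per mouse, 3 each for WT, HZ and KO. The authors deposited linear probe set intensities. The submitters' processing notes name MAS5 and Affymetrix Expression Console as the tools. After trimming 2% of probe sets at either end, the mean intensity of every array was 500.2, so the deposited values had been scaled to 1 level. Such scaling takes the bulk of transcripts as alike between arrays, and MAS5 is least precise at low signal.

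The signals were converted to log2(signal + 16), and the pseudocount shrinks differences at low signal. The 64 controls were removed, and the upper 60% of the rest by mean over the 9 arrays was tested. Genotype was the single term of a linear model over the 9 arrays (limma 3.58.1, run in R 4.3.3, with lmFit, contrasts.fit and a trended eBayes), which had 6 residual and 6.94 prior degrees of freedom. Tests were 2-sided, with Benjamini-Hochberg adjustment over the 13576 probe sets and a threshold of 0.05. Apart or not overlapping means that all 3 arrays of 1 group lay above all 3 of the other. The procedure was tested on simulated data with 200 changed probe sets over 10 runs, with 4.44% false calls.

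The platform annotation gave 20380 probe sets 1 gene symbol, 691 several and 1555 none. Of the first, 20364 matched the RefSeq table (GRCm38.p6). A probe set with several symbols was left unnamed, and the brightest kept probe set stood for each gene. The genes named are Gap43, the 12 of smallest p in each direction, the 3 largest differences in each direction with an unadjusted p below 0.01, and the 2 members of smallest p in each of 36 lists. Other list members named in the text were chosen after their values were seen. The comparison, the lists and the markers were chosen with earlier results of these data known, and lists are described by counts and medians without a set test. The alternatives tried were the filter, the pseudocount, the scaling, the samples in the fit, the intensity trend, array weights, a replicate block, sex, the 3′ to 5′ ratio, each array left out, and the mean of a gene's probe sets. The counts of list members without each array were added after the data were seen.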

Additional observations from a re-analysis of the deposited data

How the results depend on the processing

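The difference of Gap43 kept its direction under all 21 alternatives fitted to it, but its adjusted p (0.0362 by limma) did not stay below 0.05 under all. It was 0.287 at -1.82 on the log2 scale without the filter, 0.0879 at -1.79 with arrays set to 1 median, 0.0782 at -1.84 with quantile normalization, 0.0697 at -1.82 with the KO and HZ arrays only and 0.144 at -1.82 without the intensity trend. With 1 array left out it ran from 0.0082 to 0.168 (log2 difference -2.08 to -1.59). The value was 0.148 without HZ replicate 1, 0.168 without HZ replicate 2, 0.0661 without HZ replicate 3, 0.0513 without KO replicate 1, 0.0619 without KO replicate 3 and 0.0956 without WT replicate 2. The number of probe sets past the threshold (1) was 0 without the filter, with 1 median, with quantile normalization, with the KO and HZ arrays only and without the trend. It was 3 with the 3′ to 5′ ratio as a term (Dio2, Gap43 and Polr2f) and 0 to 2 with 1 array left out. Probe sets lower at an unadjusted p below 0.05 (511) numbered 845 without the filter, where more were tested, and 327 with 40% of probe sets kept, where fewer were. The cause of the other shifts was not tested.

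Replicate numbers did not pair the arrays: deviations of same-numbered KO and HZ arrays correlated at -0.08, 0.11 and -0.01. With the number as a replicate block, 2 probe sets passed, Gap43 (adjusted p 0.0472) and Malat1 (0.0270). Malat1 also passed without KO replicate 1 (0.0436). Among the values of named genes under the alternatives, 1703 kept their direction and side of the threshold, 4 newly passed it and 0 reversed. Among the list medians 762 moved by less than the spread between arrays and 30 by more. Dim probe sets differed by more: the median size of the log2 difference was 0.23 below the filter and 0.15 in the probe sets kept. Whether background made the fold differences of dim genes too small or too large was not tested.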
